A study of Mus musculus with 3 samples.

Results

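The genes described here are 10 AP-1 and immediate early genes: Jun, Junb, Jund, Fos, Fosb, Atf3, Egr1, Ier2, Ier3 and Dusp1. Most of them are parts or partners of the transcription factor AP-1. The 10 genes were chosen by symbol, each symbol matched 1 feature, and they are 10 of the 34289 features listed. They were read in single cells from the ear epidermis of male CD1 mice, an outbred stock, in 3 droplet-based 3' libraries enriched for Langerhans cells, which reside in the epidermis and present antigen. The untreated library came from ears that had received depilatory cream alone, the croton oil library from ears given this irritant plant oil mixed with acetone and olive oil, and the microneedle library from ears punched several times with a microneedle array. Both treated ears were taken 48 hours after the first treatment. The labels do not give the number of animals behind a library. With 1 library per group no difference could be tested, no p-value is given, and the 95% intervals printed cover counting error only.

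Immediate early genes are switched on within minutes of a stimulus without new protein synthesis, and their transcripts decay quickly. AP-1 is a dimer of a Jun protein with a Fos, Jun or ATF protein; Egr1 is a zinc finger transcription factor induced by the same kinases, and Dusp1 encodes a phosphatase that switches those kinases off. The same genes are known to respond to enzymatic digestion of tissue. Every library went through trypsin at 37 °C for 1 h 45 min, so transcripts present in the skin and transcripts made during preparation cannot be told apart.

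Langerhans cells were taken by a gate: at least 2% of the unique molecular identifiers (UMIs, 1 per captured transcript) from Cd74, H2-Aa, H2-Ab1 and H2-Eb1, which encode the invariant chain and MHC class II chains, and at least 2 UMIs of Epcam, an adhesion molecule of these cells. The gate kept 8651 untreated, 5922 croton oil and 5295 microneedle cells, or 95.5%, 77.7% and 81.7% of the retained cells, with median depths of 11527, 12576.5 and 17342 UMIs. Total counts per library were between 117178809 and 127666928 UMIs. The defining marker Cd207 (langerin) had a UMI in 97.3% of the gated untreated, 76.9% of the gated croton oil and 95.2% of the gated microneedle cells, and all 8 Langerhans cell markers listed were above 20 CPM (UMIs of a gene scaled to the total of the summed cells) in each library. Summed macrophage markers were 724, 2069 and 938 CPM in the gated cells of the untreated, croton oil and microneedle libraries, and summed keratinocyte markers were 309, 320 and 71.3 CPM. The libraries shared between 11 and 27 cell barcodes in pairs.

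Promoter sequence of 8 of the 10 genes, all but Egr1 and Ier2, was searched on both strands for motifs named after factors known to act on immediate early genes, over the 250 bases before the start of each RefSeq promoter entry (GRCm38.p6, not the build of the count files). The motifs were the cyclic AMP response element (CRE) TGACGTCA, its half-site TGACGT, the variant TGACATCA, the AP-1 site TGANTCA, the Egr site GCGTGGGCG, the CArG box of serum response factor and the kappaB site of NF-kB. The half-site lies within the CRE. The stretches with a match are shown so that the upstream sequence of the members can be compared. Each runs 5′ to 3′ on the gene's strand, and capitals mark the match.

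Jun, chr4:95052223-95052307, minus strand: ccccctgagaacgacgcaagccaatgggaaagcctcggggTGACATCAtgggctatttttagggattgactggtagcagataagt
Fos, chr12:85473784-85473869, plus strand: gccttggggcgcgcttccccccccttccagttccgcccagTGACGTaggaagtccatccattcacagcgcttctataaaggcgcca
Fos, chr12:85473640-85473725, plus strand: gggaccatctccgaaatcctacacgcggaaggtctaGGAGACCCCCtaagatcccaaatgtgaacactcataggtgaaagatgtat
Fosb, chr7:19310184-19310273, minus strand: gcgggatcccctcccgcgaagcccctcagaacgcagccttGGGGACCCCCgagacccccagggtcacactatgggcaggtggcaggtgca
Atf3, chr1:191183334-191183381, minus strand: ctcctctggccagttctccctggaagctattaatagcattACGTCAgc
Ier3, chr17:35821581-35821670, plus strand: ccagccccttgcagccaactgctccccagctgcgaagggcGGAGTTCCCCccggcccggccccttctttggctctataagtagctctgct
Dusp1, chr17:26508568-26508703, minus strand: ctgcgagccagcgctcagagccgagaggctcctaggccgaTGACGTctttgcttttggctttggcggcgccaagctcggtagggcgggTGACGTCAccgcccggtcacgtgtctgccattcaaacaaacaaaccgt

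The Jun stretch held the CRE variant 45 to 38 bases before the start, a motif found in 2.93% of all 32851 promoter entries searched. Fos, Fosb and Ier3 each held a kappaB site, in each case on the opposite strand. On either strand 3.90% of entries held such a site. Dusp1 held a full CRE 143 to 136 bases before its start and a half-site further upstream; 1.55% of entries held a CRE and 6.47% a half-site. The remaining matches were half-sites in Fos and in Atf3, the latter on the opposite strand and ending 3 bases before the start. Junb and Jund held none of the motifs in this window. None of the 8 genes searched held the AP-1 site (6.75% of entries), the CArG box (1.47%) or the Egr site (0.536%) there. A match describes letters and is not a binding site.

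In gated Langerhans cells several of the 10 genes were among the most abundant messages. Together they summed to 17564 CPM in the untreated library, 11825 CPM in the croton oil library and 12019 CPM in the microneedle library. Fos ranked 15th, Fosb 22nd, Atf3 27th and Junb 30th of all genes in untreated cells, while Dusp1 ranked 168th, Egr1 225th and Ier2 287th. Ier2 ranked 530th with croton oil and 547th with microneedles. The assay counts transcript 3' ends, so these levels are not divided by transcript length. The sum was highest in the untreated cells. The treated libraries were not ordered: in cells thinned to 5000 UMIs the mean sums were 61.5 UMIs with croton oil and 61.3 UMIs with microneedles.

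Among the Jun proteins, Jun (ENSMUSG00000052684), the founding AP-1 subunit, differed most between libraries. Its level was 1874 CPM (1866 to 1882) untreated, 513 CPM (508 to 518) with croton oil and 687 CPM (682 to 693) with microneedles. Junb (ENSMUSG00000052837), an immediate early relative, was at 2436, 2046 and 1805 CPM. Jund (ENSMUSG00000071076), the most constantly expressed of the family in many tissues, was at 1609, 1047 and 966 CPM. Jun was therefore lower than Jund in both treated libraries and higher than it in the untreated one. Of all UMIs of the 3 Jun genes, Jun held 31.7% untreated, 14.2% with croton oil and 19.9% with microneedles, while Junb held 41.2%, 56.7% and 52.2%. The share of Jund varied least, at 27.2%, 29.0% and 27.9%.

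Fos proteins pair with Jun proteins and cannot bind DNA as AP-1 on their own. Fos (ENSMUSG00000021250) was at 3440 CPM untreated, 2631 CPM with croton oil and 2694 CPM with microneedles. Fosb (ENSMUSG00000003545) was at 2795, 1306 and 1833 CPM. Fos was the highest gene of the set in each library, and Fosb was lowest after croton oil. Fosb held 43.5% of the UMIs of the 4 Fos genes untreated, 31.8% with croton oil and 38.5% with microneedles. Of the other Fos genes, which are not members of the set, Fosl2 held 2.83%, 4.08% and 4.83%, and Fosl1 under 0.05% in each.

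Atf3 (ENSMUSG00000026628), a stress-induced partner of Jun proteins that often represses, was at 2488 CPM untreated, 1269 CPM with croton oil and 1726 CPM with microneedles. Egr1 (ENSMUSG00000038418) was at 639, 443 and 575 CPM. Dusp1 (ENSMUSG00000024190) was at 836, 530 and 509 CPM. For these 3 genes the untreated library was the highest, and the order of the treated libraries differed: Atf3 and Egr1 were lowest after croton oil, and Dusp1 was lowest after microneedles by a narrow margin. Ier2 (ENSMUSG00000053560), a nuclear protein induced early by growth factors, was at 510, 310 and 322 CPM. Ier3 (ENSMUSG00000003541), a stress-induced regulator of cell survival, went the other way after croton oil, with 938 CPM untreated, 1731 CPM with croton oil and 902 CPM with microneedles.

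**Figure D1:**
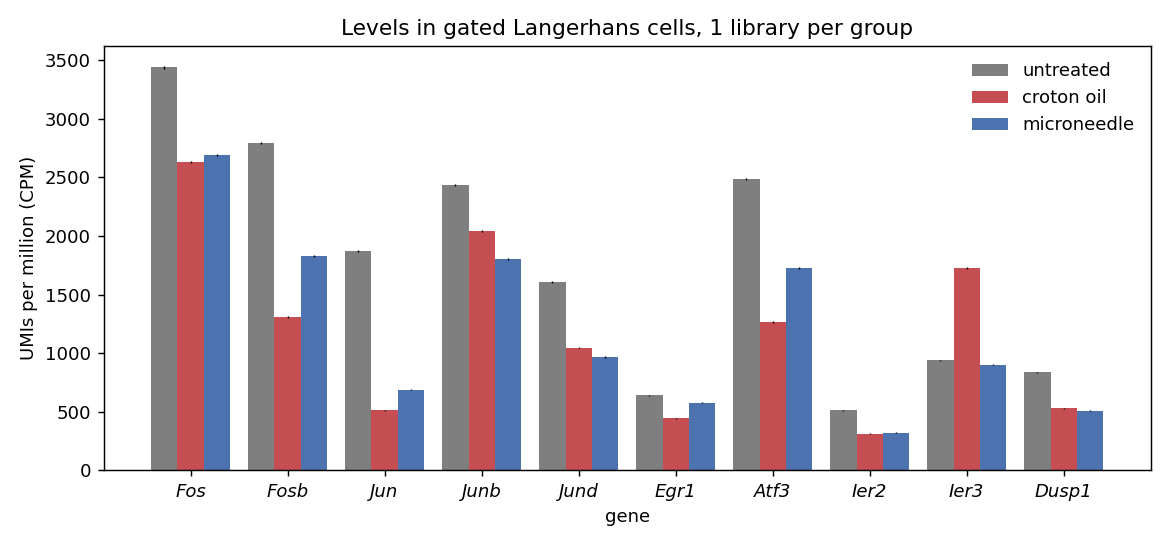
Levels of the 10 genes in gated Langerhans cells, in CPM (linear axis from 0), 1 bar per library, with exact Poisson 95% intervals of the summed counts. Every untreated bar is the highest of its gene except that of Ier3, whose croton oil bar stands at 1731 CPM.

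Against untreated cells, 9 of the 10 genes were lower after croton oil and 10 of 10 after microneedles. Of all genes compared, 52.1% and 46.9% were lower. The members' medians were -0.64 and -0.57 on the log2((CPM + 5)/(CPM + 5)) scale, where the medians of all genes compared were -0.03 and 0.03. Both comparisons share the untreated library. Jun and Fosb were at least 2-fold lower after croton oil and none was at least 2-fold higher; of all 6837 genes compared, 5.53% were that much lower and 5.5% that much higher. Jun alone was at least 2-fold lower after microneedles and none was higher, where 1.76% of 6703 genes were lower and 3.88% higher. These counts are small, and the members' share of 2-fold calls is read here beside those backgrounds only.

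Jun was 3.66-fold (3.62 to 3.69) lower after croton oil, a log2 change of -1.86, and 0.731% of the genes compared had a lower value. After microneedles it was 2.73-fold (2.70 to 2.75) lower, a log2 change of -1.44, with 0.522% of genes below it. It was the member farthest from 0 in both comparisons. Fosb was 2.14-fold (2.13 to 2.16) lower after croton oil and 1.53-fold lower after microneedles. Atf3 lay just inside the 2-fold line after croton oil at 1.96-fold lower, and was 1.44-fold lower after microneedles. Under TMM or median-of-ratios scaling, and within the largest Langerhans-like cluster of each library, Fosb also came to lie inside the line, which left Jun as the 1 gene at least 2-fold lower. Without mitochondrial and ribosomal protein genes in the total, and in all cells of the Langerhans-like clusters, Atf3 passed the line too, with log2 changes of -1.01 and -1.06, and the genes 2-fold lower were 3.

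The remaining members differed less. Jund, Ier2 and Dusp1 were 1.54-fold, 1.65-fold and 1.58-fold lower after croton oil and 1.67-fold, 1.59-fold and 1.64-fold lower after microneedles. Fos was 1.31-fold and 1.28-fold lower, and Junb 1.19-fold and 1.35-fold lower, in the same order. Egr1 was 1.44-fold lower after croton oil and 1.11-fold lower after microneedles. The microneedle value of Egr1 had no stable direction: within the largest cluster of each library its log2 change was 0.08 in place of -0.15, and in the cluster led by Hdac9 it was 0.30.

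Ier3 was the 1 member higher after croton oil than in untreated cells, by 1.85-fold (1.83 to 1.86), a log2 change of 0.88. After microneedles its log2 change was -0.055. Set directly against each other, croton oil cells had 1.92-fold (1.90 to 1.93) more Ier3 than microneedle cells, with 98.1% of the 6633 genes compared below that value. No member was at least 2-fold different between the treated libraries, where 1.63% of genes were higher and 1.04% lower in croton oil. With median-of-ratios scaling Ier3 passed the 2-fold line against both other libraries, and with TMM scaling or in the largest clusters against the microneedle library. In the same comparison Jun was 1.34-fold, Fosb 1.40-fold and Atf3 1.36-fold lower in croton oil, and Fos, Ier2 and Dusp1 lay between -0.05 and 0.06 in log2 change. These 3 lower values depended on the cells compared: in a cluster led by heat-shock genes they stood at 1155 CPM with croton oil and 721 CPM with microneedles for Jun and at 828 and 611 CPM for Atf3, and in a cluster led by H2-Ea at 1476 and 1278 CPM for Fosb.

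**Figure D2:**
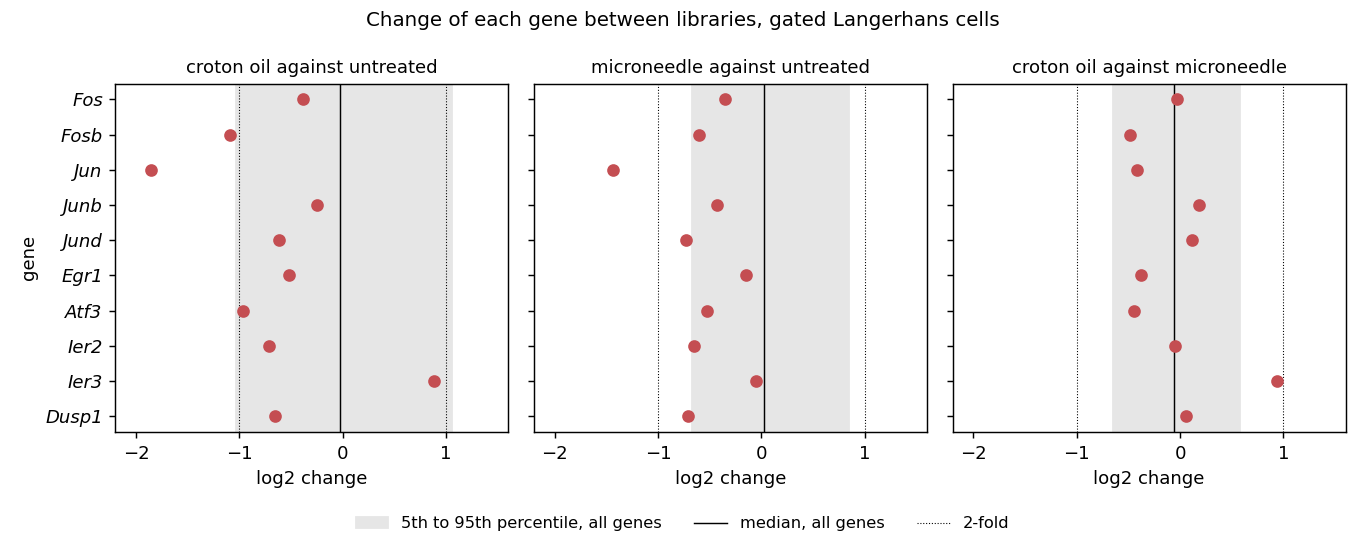
Log2 change of each gene in gated Langerhans cells for the 3 comparisons, with the 5th to 95th percentile of all genes compared (grey), their median (line) and the 2-fold limits (dotted). Jun stands at -1.86 and -1.44 in the comparisons with untreated cells, and Ier3 at 0.88 after croton oil.

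The differences were also visible as shares of cells. With each cell thinned to 3000 UMIs, a Jun UMI was found in 94.1% (93.5 to 94.6) of 8549 untreated, 59.6% (58.4 to 60.9) of 5890 croton oil and 73.5% (72.2 to 74.6) of 5236 microneedle cells; without thinning the shares were 99.0%, 87.5% and 96.0%. For Fosb the thinned shares were 97.0%, 85.0% and 90.9%, and for Ier3 80.8%, 85.8% and 75.0%. None of the other classes is known to lack Jun or Fosb, so no background share was at hand. A Fosb UMI was found in fewer neutrophils, with 20.2% of 109 croton oil and 31.9% of 248 microneedle cells thinned in the same way, from median depths of 3041.5 and 3272 UMIs, and in microneedle macrophages, with 31.5% of 292 cells and a median of 6673 UMIs. Scaled by Cd207, Langerhans cell RNA would supply 38.0%, 46.8% and 24.8% of the Fosb counted in these 3 groups of cells, so their shares are not read as expression.

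Among cells thinned to 5000 UMIs the median untreated Langerhans cell carried 8 Jun UMIs, the median croton oil cell 1 and the median microneedle cell 3. The variance of the Jun count over its mean was 5.35 untreated, 5.45 with croton oil and 3.79 with microneedles, at means of 9.65, 2.62 and 3.56 UMIs. The 10% of cells with the most Jun held 26.3%, 43.7% and 33.7% of its UMIs, a share that is read beside those means only: for Ier2, at a mean of 1.64 UMIs with croton oil, it was 40.2%. For the 10 genes together no cell was at 0 in any library, and the medians were 90, 60 and 60 UMIs.

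The gated cells fell into clusters that followed the libraries, made without the 10 genes themselves. The largest held 44.8% of the gated untreated cells, 79.4% of the croton oil cells and 73.5% of the microneedle cells. They were led by Hdac9 and Adgre4, by H2-Ea and C1qc, and by Scube1 and Neb, in the same order. The croton oil one had 3 macrophage markers among its 10 leading genes. None of the Langerhans-like clusters had a Langerhans cell marker among its 10 leading genes. Of the 8 listed, the largest untreated cluster had 7 present, and the croton oil and microneedle ones had 8. A cluster in which cells of a library are few still allowed a comparison. In the cluster led by Scube1, Jun was at 1431 CPM in 65 untreated cells, 417 CPM in 130 croton oil cells and 646 CPM in 3892 microneedle cells. In the cluster led by Cd69, Jun was at 2037 CPM in 3694 untreated and 1009 CPM in 397 microneedle cells, and in that led by Hdac9 at 1860 CPM in 3873 untreated and 1001 CPM in 195 microneedle cells. The Jun level thus followed the library within each of these clusters. Ier3 in the Scube1-led cluster was at 954, 1612 and 915 CPM, the same order as over all gated cells. In the Cd69-led and Hdac9-led clusters it was higher with microneedles than untreated, at 1065 against 930 CPM and 1181 against 1035 CPM, so its microneedle value had no stable direction.

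One cluster held similar numbers of cells from each library, 733 untreated, 717 croton oil and 625 microneedle gated cells, and was led by the heat-shock genes Hsph1, Hspa1a and Hspa1b, which encode chaperones induced by protein-damaging stress. Summed over 11 heat-shock genes it had 5053, 5739 and 4630 CPM, against 3167, 3408 and 3247 CPM in the other gated cells. Its cells had median depths of 9673, 12055 and 13680 UMIs, against 11010 and 12112 UMIs in the 2 main untreated clusters, 12464 UMIs in the main croton oil cluster and 18265 UMIs in the main microneedle cluster. Lars2, a mitochondrial tRNA synthetase, and the macrophage marker C1qb were also among its 10 leading genes; the part of depth and of these genes in the values below was not tested. The sum of the 10 genes was lower there. It was 2.40-fold lower than in the other cells of the untreated library, 1.80-fold lower with croton oil and 2.47-fold lower with microneedles. Fos was 2.81-fold, 2.19-fold and 3.71-fold lower, and Junb 2.90-fold, 2.89-fold and 2.65-fold lower, in the same order.

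Jun departed from this pattern. In untreated cells it was 1.43-fold lower inside the heat-shock cluster, at 1338 CPM against 1913 CPM. In the croton oil library it was 2.69-fold (2.63 to 2.75) higher inside, at 1155 CPM against 430 CPM, and in the microneedle library it was nearly level, at 721 CPM against 684 CPM. The cluster held 11.4% of all gated croton oil UMIs and 25.8% of the Jun UMIs. Inside the cluster Jun was 1.16-fold lower with croton oil than untreated, and outside it the log2 change was -2.14, which is farther from 0 than over all gated cells. The count of members lower after croton oil did not carry over to this cluster: 5 of 10 were below 0 and 5 above, with a median log2 change of -0.03 beside -0.07 for all genes compared. Fos was at 1280 CPM with croton oil and 1278 CPM untreated, Egr1, Ier2 and Dusp1 were 1.06, 1.12 and 1.07 times their untreated level, and Ier3 1.62 times. Fosb was lower there, at 442 against 1079 CPM. After microneedles 9 of 10 were below 0 in the cluster, all but Egr1. The median log2 change was -0.39 beside 0.02 for all genes compared. No other member was higher inside the cluster than outside in any library. The cluster was defined by expression in these cells, and no replicate was at hand, so the Jun pattern is a description.

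**Figure D3:**
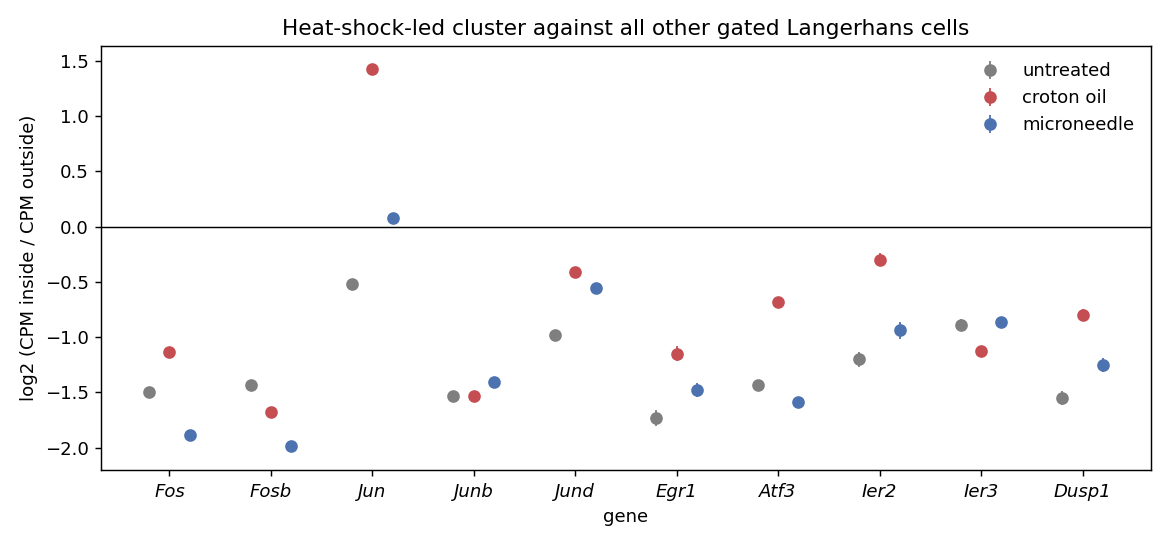
Log2 ratio of CPM inside the heat-shock-led cluster to CPM in all other gated Langerhans cells, for each gene and library, with 95% counting intervals. All points lie below 0 except those of Jun in the croton oil and microneedle libraries; the croton oil ratio of Jun is 2.69.

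The migratory cells, led by Fscn1 and Ccr7, mostly failed the gate. In the 274 gated croton oil cells of that cluster the 10 genes summed to 8120 CPM, against 12875 CPM in the main croton oil cluster. The cycling cluster, led by Pclaf, had 13093 CPM in 196 gated untreated cells.

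The other classes had their own profiles. Levels are given where a class had at least 50 cells in a library after cells with 2% or more MHC class II UMIs were left out. The 10 genes summed to between 5418 and 6494 CPM in keratinocytes, 14565 and 17543 CPM in croton oil and microneedle neutrophils, 9110 CPM in microneedle macrophages and 7447 CPM in croton oil T cells. RNA from Langerhans cells was present in all of them: Cd207 stood at 15.1%, 6.32% and 18.5% of its Langerhans cell level in untreated, croton oil and microneedle keratinocytes, and at between 2.33% and 4.64% in the other classes. At those shares Langerhans cell RNA would supply 69.8% of the Fos and 68.8% of the Fosb counted in untreated keratinocytes, and 76.1% and 79.8% in microneedle keratinocytes, so these keratinocyte levels are not read further.

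In keratinocytes Jun did not follow its course in Langerhans cells. In the 240 untreated cells it was at 1021 CPM (996 to 1047), in the 219 croton oil cells at 1169 CPM (1149 to 1190) and in the 97 microneedle cells at 1013 CPM (980 to 1048), and Langerhans cell RNA would supply 27.8%, 2.77% and 12.5% of it. Egr1 was the member that differed most, at 848 CPM untreated, 225 CPM with croton oil and 639 CPM with microneedles. It was 3.77-fold lower after croton oil, in a comparison in which 14.3% of 7619 genes were at least 2-fold lower and 12.9% higher. Egr1 was the 1 member past 2-fold there, and no member was past 2-fold after microneedles, where 6.43% of genes were lower and 6.8% higher. Between croton oil and microneedle keratinocytes Egr1 was 2.84-fold lower with croton oil, again the 1 member past 2-fold, beside 6.24% of genes lower and 1.31% higher. Whether a change differed between the cell classes was not tested.

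Neutrophils, short-lived phagocytes that enter inflamed skin, were led by Ier3, Junb and Dusp1. Ier3 was at 2805 CPM in 212 croton oil cells and 3863 CPM in 393 microneedle cells, Junb at 2624 and 3617 CPM, and Dusp1 at 2074 and 3238 CPM. Jun stood at 1954 CPM after croton oil and at 788 CPM after microneedles, 2.48-fold (2.30 to 2.67) higher with croton oil, the reverse of the order in Langerhans cells. Jun was the 1 member at least 2-fold higher there, beside 11.8% of 5341 genes, and Fosb and Atf3 were at least 2-fold lower, beside 11.8%. Langerhans cell RNA would supply 0.642% and 4.04% of the neutrophil Jun, but the shares of the Fosb given above, and 11.8% and 14.5% of the Atf3. Fosb stood at only 84.1 and 181 CPM in neutrophils, and with those shares its 2-fold call is not read further.

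Microneedle macrophages were also high in Ier3 (2137 CPM), Dusp1 (1948 CPM) and Junb (1540 CPM), and low in Fosb (172 CPM). Croton oil T cells had Fos at 2040 CPM, Junb at 1862 CPM and Jund at 1105 CPM, and little Ier3 (166 CPM) or Atf3 (187 CPM), of which Langerhans cell RNA would supply 42.0% and 27.2%. Fosb and Atf3 were thus higher in Langerhans cells of every library than in any other class measured. In the reverse direction, keratinocyte RNA, scaled from keratin and other keratinocyte genes, would supply 0.453%, 1.51% and 0.240% of the Jun in untreated, croton oil and microneedle Langerhans cells.

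**Figure D4:**
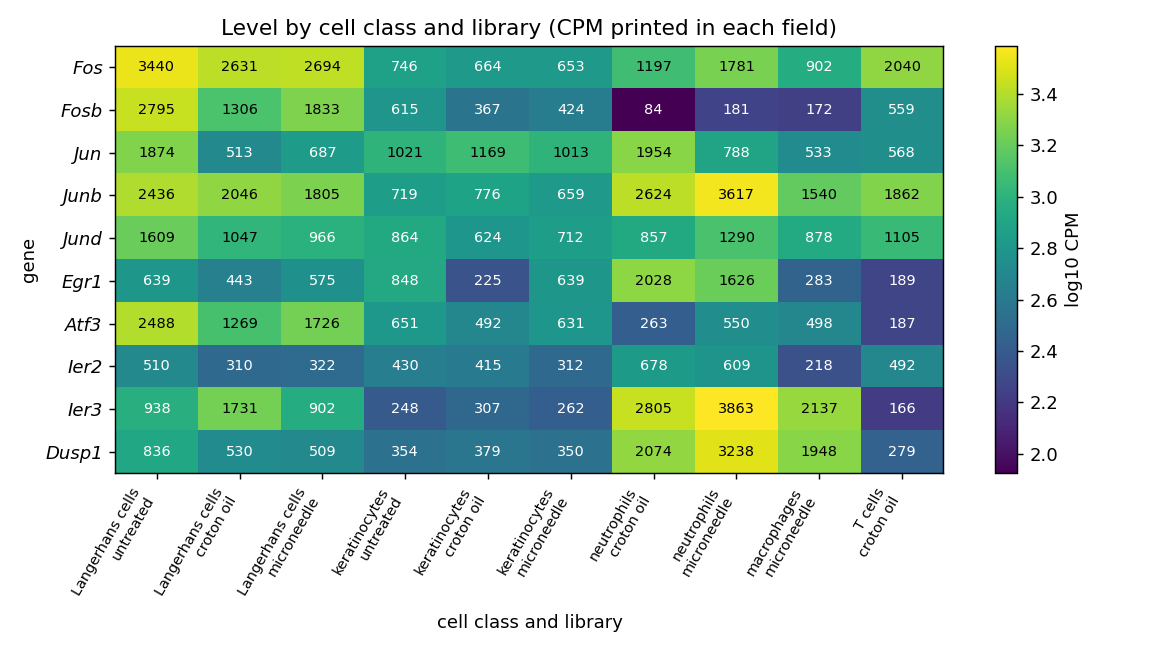
Level of each gene (rows) by cell class and library (columns), coloured by log10 CPM with the CPM printed in each field. Fosb and Atf3 are highest in Langerhans cells, Ier3 and Dusp1 in neutrophils, and Egr1 in neutrophils at 2028 and 1626 CPM.

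Coupling between the genes was described across gated cells of 1 library, thinned to 5000 UMIs, which left 8391, 5838 and 5191 cells. The cells of a library share animals, preparation and sequencing. The median Pearson correlation over the 45 pairs was 0.27 untreated, 0.17 with croton oil and 0.21 with microneedles, while the median over all pairs of genes at 50 CPM or more lay under 0.001 and the 99.9th percentile at 0.15, 0.16 and 0.17. Part of this spread lies between the heat-shock cluster and the rest: without that cluster the medians were 0.17, 0.11 and 0.13.

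The tightest pair was Fos with Fosb, at r = 0.56, 0.51 and 0.56 (Spearman 0.41, 0.44 and 0.46). Fos with Junb came to 0.48, 0.43 and 0.44, and Fos with Atf3 to 0.45, 0.38 and 0.45. Egr1 was tied most closely to Ier2 in the untreated and microneedle libraries, at 0.33 and 0.36, with 0.24 after croton oil. Over all gated cells Fos, Fosb, Junb and Atf3 were correlated with each other in each library, but not always more closely than with other members. In untreated cells Dusp1 came to 0.40, 0.37 and 0.35 with Fos, Fosb and Junb, and Jund to 0.38, 0.36 and 0.36. Junb with Atf3 came to 0.36 there. Fos with Dusp1 came to 0.30 both with croton oil and with microneedles, beside 0.27 and 0.37 for Junb with Atf3. Within the largest cluster of each library the following values were smaller than over all gated cells. Fos with Fosb came to 0.30, 0.34 and 0.34, and Fos with Junb to 0.28, 0.23 and 0.21. Fos with Atf3 came to 0.21, 0.27 and 0.24, and Junb with Atf3 to 0.15, 0.14 and 0.22. Ier3 was weakly tied to the rest, with correlations of 0.20, 0.20 and 0.24 with the sum of the other 9 genes.

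Over all gated cells the correlation of Jun with the other members differed most between the libraries. Its correlation with the sum of the other 9 genes was 0.38 untreated, -0.03 with croton oil and 0.20 with microneedles. This ranking did not hold within the largest cluster of each library. There the median correlation with the other 9 genes was 0.12, 0.06 and 0.07 for Jun and 0.18, 0.14 and 0.11 for Jund. Over all gated cells Jun with Fos came to 0.29, -0.02 and 0.14, and Jun with Junb to 0.26, -0.10 and 0.14. In the largest clusters Jun with Fos came to 0.16, 0.12 and 0.06, and Jun with Junb to 0.13, 0.01 and 0.13. Without the heat-shock cluster they came to 0.19, 0.09 and 0.04, and to 0.15, -0.01 and 0.12. For Fos the croton oil sign and the order of the treated libraries thus depended on the cells compared. With the summed heat-shock genes Jun came to 0.07, 0.17 and 0.11 over all gated cells. Without the heat-shock cluster it came to 0.07, 0.05 and 0.05, and Ier3 to 0.07, 0.08 and 0.10. Inside that cluster Jun came to 0.35, 0.27 and 0.37, and Fos to 0.43, 0.32 and 0.28. The other members lay above 0 there too, apart from Jund with microneedles at -0.04, so this tie was not particular to Jun. When cells of the heat-shock cluster were left out, the median correlation of Jun with the other 9 genes was 0.14, 0.04 and 0.06. Inside that cluster it was 0.31, 0.12 and 0.18. Correlations this small in sparse counts describe these cells and are no finding about regulation.

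**Figure D5:**
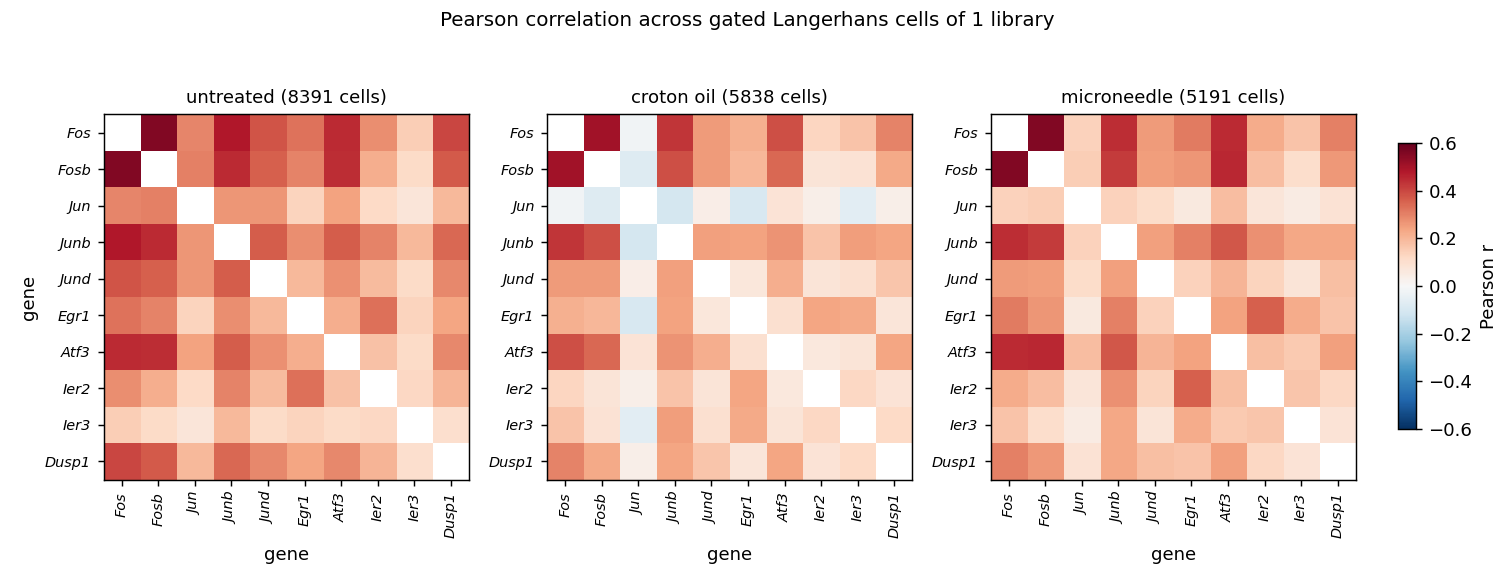
Pearson correlation between each pair of the 10 genes across gated Langerhans cells of 1 library, thinned to 5000 UMIs, on a scale from -0.6 to 0.6. Fos, Fosb, Junb and Atf3 are dark in all 3 panels, and the Jun row is near 0 or below in the croton oil panel.

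Ranked by their mean correlation with the summed members over the 3 libraries, the 8 genes most alike among 3006 were Zfp36 (0.51), Dennd4a (0.48), Cd86 (0.45), Tbc1d4 (0.44), Btg2 (0.40), Il1r2 (0.39), Tnfaip2 (0.38) and H3f3b (0.38). Zfp36, which encodes an mRNA-destabilising protein, and Btg2, an antiproliferative factor, are themselves immediate early genes. Zfp36 was at 1200 CPM untreated, 884 CPM with croton oil and 651 CPM with microneedles, and Btg2 at 1235, 788 and 765 CPM. Cd86, a costimulatory ligand for T cells, was at 4476, 3884 and 5630 CPM and so was highest in the microneedle library, where the members were not.

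Of 12 other AP-1 proteins counted, 7 passed the filter of 20 CPM against croton oil, and 1 was at least 2-fold higher and none lower: Batf3, a factor of dendritic cells, at 6.52 CPM untreated and 23.3 CPM with croton oil. Of 7 compared after microneedles 1 was 2-fold higher, Jdp2, a repressor of AP-1, at 2.52 CPM untreated and 23.6 CPM. Each passed the filter only through the library in which it was high, which fixed its direction, so these calls are not read further. Over all genes compared, 5.5% were 2-fold higher and 5.53% lower after croton oil, and 3.88% and 1.76% after microneedles, and the counts of this and the next lists stand beside those shares. The median changes of the AP-1 list were -0.11 and -0.06.

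Of 28 other immediate early genes, 25 were compared for croton oil and 18 of them were below 0, with a median of -0.38, and 24 for microneedles with 19 below 0 and a median of -0.34; of all genes compared 52.1% and 46.9% were below 0. Past 2-fold, Nr4a2, an orphan nuclear receptor, was higher in both, at 116 CPM untreated, 378 CPM with croton oil and 371 CPM with microneedles. Klf2, a factor of quiescence, was lower in both, at 195, 69.0 and 57.5 CPM. Socs3, an inhibitor of cytokine signalling, was higher after croton oil alone in the 2-fold count, at 23.6, 112 and 36.4 CPM. Most of this list therefore lay on the same side of 0 as the members, and 7 genes lay above 0 after croton oil and 5 after microneedles, Nr4a2 and Socs3 among them in both.

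Of 24 upstream kinases, phosphatases and factors, 20 were compared in each. After croton oil 3 were at least 2-fold higher and 2 lower, but Dusp4 (11.9 and 50.5 CPM) and Mrtfb (38.7 and 14.6 CPM) passed the filter through 1 library only, which fixed their direction, and these calls are not read further. Of the other calls, 2 were higher and 1 lower. Dusp5, a phosphatase of the ERK kinases, was at 73.6 CPM untreated and 233 CPM with croton oil, the opposite direction to Dusp1. Mrtfa, a cofactor of serum response factor, was at 129 and 295 CPM. Dusp10, a phosphatase of the stress kinases, was at 66.7 and 23.9 CPM. After microneedles 1 was higher, Dusp5 at 155 CPM, and none was lower. The median changes were -0.20 and 0.02. Of 11 heat-shock genes 10 were compared and none was past 2-fold in either comparison; they summed to 3294, 3675 and 3373 CPM in the 3 libraries, and their part in the members' differences over all gated cells was not tested.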

How the data were processed

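The deposited matrices held raw UMI counts, made by the authors using Cell Ranger (8.0.0 in the file headers) on GRCm39, per the submitters' processing notes. Cells with at least 500 genes and at most 10% mitochondrial UMIs were kept. Scrublet's automatic threshold marked 1, 0 and 0 cells, so the highest scores were removed at 0.8% per 1000 cells (773, 532 and 376 cells). Cells were clustered jointly without the 10 genes (scanpy 1.11.5, 1996 variable genes, 30 components, 15 neighbours, Leiden resolution 0.5), giving 12 clusters. Clusters were named by the markers of 6 classes (Langerhans cell, keratinocyte, neutrophil, macrophage, T cell, melanocyte), not by the migratory, cell cycle or remaining lists: at least 3, and a share of 0.5 of its list, present at 20 CPM and 0.2 of the highest level; Langerhans cells also needed Cd207 at that share, and a cluster meeting this for them and 1 other of the 6 took the other name. This rule, and leaving cells with 2% or more MHC class II UMIs out of the other classes, were set after the data were seen. The macrophage cluster had 11 of 12 markers present and none among its 10 leading genes.

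Counts were summed per class and library as CPM. Changes used a pseudocount of 5 CPM and genes with at least 20 CPM in either library. Poisson and Clopper-Pearson intervals are exact. TMM (edgeR 4.0.16) and DESeq2 1.42.0 size factors served as scaling alternatives only. Fold calling was tested on simulated data. The members, lists and alternatives were chosen with earlier results of these data known. All members were named, pathway genes past 2-fold against untreated (1 listed gene is not reported here and is left out of its list's counts and medians), and the 8 genes most correlated with the summed members.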

Additional observations from a re-analysis of the deposited data

Results flagged for a closer look

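The change of Ier3 lay on opposite sides of 0 in the comparisons of the treated libraries with the untreated one, which both share. Its log2 change in gated Langerhans cells was 0.88 after croton oil and -0.055 after microneedles. The difference between these changes was not tested, since each group is 1 library, and the microneedle value is close to 0. In the Cd69-led and Hdac9-led clusters it was 0.19, on the same side as croton oil.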

How the results depend on the processing

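Each change was recomputed under 16 alternatives planned and 3 added after seeing the data. No paired analysis was possible because each group is 1 library. Of the 20 changes against untreated, 19 kept their direction under these alternatives, and Egr1 after microneedles did not (0.080 in the largest cluster of each library); of the changes between treated libraries, Fos and Ier2 changed direction under TMM and median-of-ratios scaling, and Fos also after thinning. Jun ranged from -2.14 to -1.72 after croton oil and from -1.52 to -1.43 after microneedles. The 2 genes 2-fold lower after croton oil became 1 under TMM scaling, median-of-ratios scaling and in the largest clusters, and 3 without mitochondrial and ribosomal protein genes and in all cells of Langerhans-like clusters. The count of 0 higher became 1 under median-of-ratios scaling, and between the treated libraries 1 under both scalings and in the largest clusters. Median-of-ratios scaling raised the changes of all genes by a median of 0.13 in both comparisons with croton oil; the higher share of 2-fold calls went from 49.9% to 65.6% (TMM 62.7%) against untreated and from 61.0% to 76.0% (TMM 74.6%) against microneedles. Within single clusters, which are not among the alternatives, these directions changed: after croton oil Fos, Egr1, Ier2 and Dusp1 in the heat-shock cluster; after microneedles Ier3 in those led by Cd69 and Hdac9, and Egr1 in that led by Hdac9 and the heat-shock cluster; between the treated libraries Fos, Fosb and Dusp1 in the H2-Ea-led cluster, Jund and Dusp1 in the Scube1-led one, and Fos, Jun, Atf3 and Ier2 in the heat-shock cluster. The median correlation of the members was 0.34 untreated and 0.28 with microneedles without thinning. In croton oil cells without thinning the median of single members with the other 9 ran from -0.004 for Jun to 0.33 for Fos. With thinning these were -0.02 and 0.26. The median correlation of the members was 0.14, 0.11 and 0.11 in the largest clusters (untreated, croton oil, microneedle), and 0.17, 0.11 and 0.13 without the heat-shock cluster. The cause of these shifts was not tested. Neutrophils, with a median near 3000 UMIs, and keratinocytes, with at most 240 cells, limit the values of those classes.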
